A study of Mus musculus with 4 samples.

Results

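Carm1, a protein arginine methyltransferase, Jmjd1c, a protein of the Jumonji family of histone demethylases, and Med1, a subunit of the Mediator complex, were mapped by chromatin immunoprecipitation followed by sequencing (ChIP-seq) in NS-5 cells. NS-5 is 1 line of mouse neural stem cells (NSCs) derived from embryonic stem cells and grown here, untreated, with EGF and FGF2. Each antibody and the IgG control contributed 1 sample, so no value below has a replicate and no difference was tested across samples. Of 8759 Carm1 sites, 477 (5.45%) overlapped both a Jmjd1c and a Med1 site by at least 1 bp, had their midpoint in no ROSE region and lay over 1.5 kb from the 5′ end (TSS) of every annotated transcript of protein-coding genes. These distal three-factor sites are the subject of what follows. They were chosen by the measured site positions, so their overlaps, widths, Med1 list places and distances are descriptions without a test.

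Mediator is a large complex that links factors bound at enhancers to RNA polymerase II at promoters. Enhancers are usually recognised by acetylated histone H3 lysine 27 (H3K27ac) and the acetyltransferase Ep300, and clusters with very high Mediator are called super enhancers. The ROSE regions were made by the study's authors in that way. H3K27ac regions overlapping Ep300 regions were joined where they lay close together, and those within 1 kb of a TSS were left out. The 8089 results were ranked by Med1 signal minus IgG signal, the first 445 as super enhancers. The sites outside the ROSE regions therefore carried all 3 factors at places that these 8089 regions did not include. The study describes a longer list of enhancers than this table holds, so a site outside the table may still lie in an enhancer of that list, which was not used here. SOX, NFI and basic helix-loop-helix (E-box binding) proteins are long known regulators of neural stem cells.

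The windows of 5 of the first sites in the order of the Med1 list are shown here, because they give what the motif counts below were made from and which genes the earliest-placed sites lie beside. All were read from the plus strand of the mouse mm9 (NCBIM37) genome, 100 bp to either side of the Carm1 midpoint, and capitals mark SOX motifs (ACAAAG or ACAATG), E-boxes (CAGNTG) and NFI half-sites (TTGGC) on either strand.
Frmd8 (chr19:5846964-5847164): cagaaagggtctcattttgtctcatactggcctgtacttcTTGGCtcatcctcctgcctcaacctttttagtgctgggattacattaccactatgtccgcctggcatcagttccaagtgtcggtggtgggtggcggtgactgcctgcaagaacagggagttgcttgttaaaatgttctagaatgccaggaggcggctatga
Taf12 (chr4:131825645-131825845): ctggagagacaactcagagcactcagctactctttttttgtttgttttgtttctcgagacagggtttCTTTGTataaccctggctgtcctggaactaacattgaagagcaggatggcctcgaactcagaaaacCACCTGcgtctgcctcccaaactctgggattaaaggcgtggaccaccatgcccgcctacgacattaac
Hhat (chr1:194572009-194572209): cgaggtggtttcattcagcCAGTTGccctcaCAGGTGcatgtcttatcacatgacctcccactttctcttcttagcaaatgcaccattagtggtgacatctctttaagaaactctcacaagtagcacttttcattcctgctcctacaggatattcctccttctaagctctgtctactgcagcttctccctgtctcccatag
Fcgr1 (chr3:96132540-96132740): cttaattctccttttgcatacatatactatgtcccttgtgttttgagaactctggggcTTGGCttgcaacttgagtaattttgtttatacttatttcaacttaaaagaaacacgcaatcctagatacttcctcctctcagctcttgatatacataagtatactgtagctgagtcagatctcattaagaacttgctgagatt
Bcan (chr3:87806659-87806859): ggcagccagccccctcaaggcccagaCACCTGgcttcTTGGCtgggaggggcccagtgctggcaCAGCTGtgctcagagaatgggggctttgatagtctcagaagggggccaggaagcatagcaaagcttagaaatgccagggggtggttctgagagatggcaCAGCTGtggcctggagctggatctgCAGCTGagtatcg
The first window lay 16.6 kb downstream of the nearest TSS, that of Frmd8, and held 1 NFI half-site. Those of Taf12, Hhat and Fcgr1 each lay 292 to 383 bp from an annotated small nuclear RNA (snRNA) gene and held few of these motifs. The window 2.48 kb upstream of Bcan, which encodes the brain proteoglycan brevican, held 4 E-boxes, 3 of them with the palindrome CAGCTG, and 1 NFI half-site.

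Shorter windows show the earliest sites that held a rarer motif, here in capitals: the NFI palindrome (TTGGC, 5 bases, GCCAA) in an intron of Slc6a2, the POU octamer (ATGCNAAT) in an intron of Wscd1, AP-1 (TGANTCA) in an intron of Klf6 and the CTCF core (CCA, 2 bases, AG, 2 bases, GGC, on the minus strand here) in an intron of Igfbp2.
Slc6a2 (chr8:95496983-95497083): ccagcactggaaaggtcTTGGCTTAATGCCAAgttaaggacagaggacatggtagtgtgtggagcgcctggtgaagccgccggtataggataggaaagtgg
Wscd1 (chr11:71584131-71584231): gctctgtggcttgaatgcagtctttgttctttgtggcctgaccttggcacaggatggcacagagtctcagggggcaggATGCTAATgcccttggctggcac
Klf6 (chr13:5862997-5863097): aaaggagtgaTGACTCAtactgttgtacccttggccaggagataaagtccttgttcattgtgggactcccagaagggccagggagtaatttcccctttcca
Igfbp2 (chr1:72874162-72874262): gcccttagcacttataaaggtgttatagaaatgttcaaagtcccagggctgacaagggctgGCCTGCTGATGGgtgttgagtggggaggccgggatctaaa
A further pair of windows of 75 bp to either side was chosen after their values were seen, as sites with CAGCTG within 50 bp of the midpoint (in capitals with SOX motifs and NFI half-sites). That of Etv5 lay in an intron of Dgkg, 69.6 kb upstream of the TSS of Etv5, which encodes an ETS factor induced by FGF signalling. That of Camta1 lay in an intron of its own gene and held an NFI half-site 2 bases before the E-box.
Etv5 (chr16:22509298-22509448): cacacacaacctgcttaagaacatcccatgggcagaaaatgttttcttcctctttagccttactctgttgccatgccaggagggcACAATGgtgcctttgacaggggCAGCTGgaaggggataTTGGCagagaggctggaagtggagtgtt
Camta1 (chr4:150539817-150539967): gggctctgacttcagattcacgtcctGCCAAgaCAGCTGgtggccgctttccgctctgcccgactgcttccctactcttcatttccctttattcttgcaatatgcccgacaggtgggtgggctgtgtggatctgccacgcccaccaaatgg

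The funnel from which the sites came was steep. Both other factors were found at 2432 Carm1 sites, of which 1524 lay inside ROSE regions, 431 at promoters outside them and 477 were distal and outside. Among distal Carm1 sites the share outside ROSE regions was 24.6% with both factors (477 of 1938), 39.4% with Med1 only, 51.4% with Jmjd1c only and 87.2% with neither. Among all 10811 distal Med1 sites it was 53.8%. A distal Carm1 site with both factors was thus the kind least often found outside the enhancer calls. The 477 sites rested on 468 Med1 sites and 473 Jmjd1c sites, and 18 of them shared a Med1 site with another, so they are not wholly separate observations.

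The Carm1 sites were wider than Carm1 sites in general and narrower than those inside ROSE regions. Their median width was 306 bp (297 to 317, 95% interval of the median). It was 334 bp (326 to 340) at three-factor sites inside ROSE regions, 293 bp at three-factor promoter sites, 269 bp (266 to 271) over all Carm1 sites and 236 bp, the smallest width in the list, at distal sites with neither other factor. The median gap between Carm1 and Jmjd1c midpoints was 61 bp outside and 66 bp inside ROSE regions. Med1 sites were broader, with a median of 1450 bp outside and 1816 bp inside. The Med1 list carries neither a height nor a p-value and its order is not explained in the sources used here, so a place in it serves only to describe. The 477 sites ran from place 23 to 19906 of 19956 with a median of 9266 (95% interval 8489 to 10265), and those inside ROSE regions had a median of 6646 (6261 to 7037). For distal Med1 sites as a whole, the share in ROSE regions was 67.4% among the first 5000 of the list and 31.6% from place 15001 on.

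The sites lay at widely varying distances from promoters and from the enhancer calls. The median distance to a protein-coding TSS was 27844 bp (23374 to 33505), against 35002 bp (31926 to 37584) for three-factor sites inside ROSE regions and 43926 bp (39786 to 48575) for distal sites with neither Jmjd1c nor Med1. It was within 5 kb for 74 sites, between 5 and 50 kb for 239 and over 50 kb for 164, and 9 sites lay over 500 kb away. The median distance to a ROSE region was 39356 bp (32253 to 48208), with 143 sites (30.0%) within the distance over which ROSE joins regions and 147 (30.8%) over 100 kb away. The gaps fell into separate ranges: 64 sites lay within 500 bp of a ROSE region, and only 2 between 500 bp and 1 kb. At 66 sites the Med1 site itself reached into the ROSE region beside it, and at 37 the Carm1 site did. The 66 sites whose Med1 site reached a ROSE region (13.8%) sat on the edge of an enhancer call. They were not wholly the same sites as those within 1 kb of a ROSE region.

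**Figure D1:**
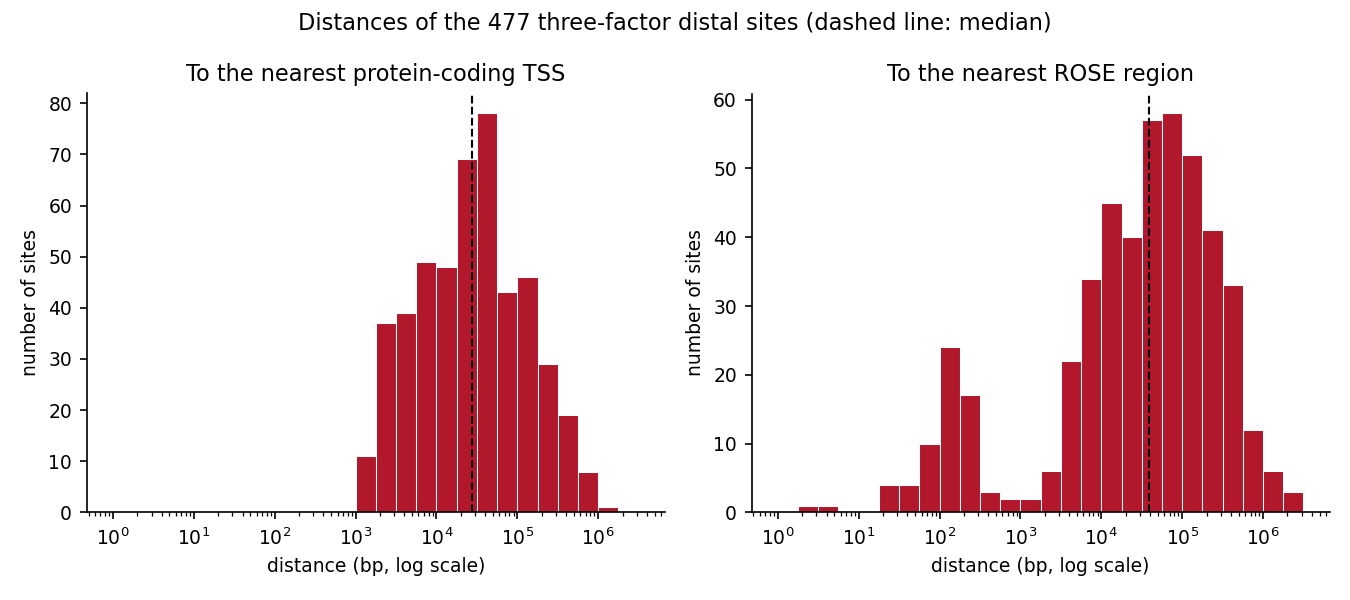
Number of distal three-factor sites (vertical axes) by distance in bp on a log scale (horizontal axes) to the nearest protein-coding TSS (left) and the nearest ROSE region (right), with dashed lines at the medians. The left panel starts at the 1.5 kb of the rule and peaks near its median of 27844 bp, and the right panel has a separate small group of 64 sites within 500 bp of a ROSE region.

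The members nearest to either limit of the rule differed from those just beyond it by small distances. The sites nearest to the promoter limit lay 1530 bp from 9830001H06Rik, 1533 bp from Dlgap4 and 1538 bp from Gm11733. Just beyond it were three-factor sites 1481 bp from Gpr153, 1477 bp from Tmem91 and 1457 bp from Jun, a subunit of AP-1. At the other limit, sites beside Gm4861 and Mrc2 lay 3 and 25 bp outside a ROSE region, and sites beside Auts2, Nfib and Fras1 lay 2 to 12 bp inside one.

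The rule used protein-coding transcripts only, and 36 of the sites (7.55%, 95% Wilson interval 5.50 to 10.3) lay within 1.5 kb of the 5′ end of an annotated noncoding gene or pseudogene. These included 14 processed transcripts, 8 sites at snRNA genes, 6 at lincRNAs and 5 at miRNAs. The snRNA sites stood early in the Med1 list, with a median place of 67.5. They lay at annotated copies of U1, U2, U5 and U11, RNAs of the spliceosome, and made up 5 of the first 10 sites. At Fcgr1 the Carm1 site (chr3:96132478-96132802, intergenic) lay 292 bp from a U1 gene, 34.5 kb from the TSS of Fcgr1 and 54.2 kb from a ROSE region. At Hhat, an acyltransferase gene, the site (chr1:194571961-194572257, intron of Hhat) lay 344 bp from a U5 gene.

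The site earliest in the list (chr19:5846946-5847181, place 23) lay inside a Med1 site of 13.9 kb. That Med1 site also covered the 5′ ends of Neat1 and Gm9783, both long noncoding RNAs, 1586 and 1444 bp from the Carm1 midpoint. Neat1 RNA is the scaffold of paraspeckles. At 26 other sites the Med1 site reached as far as a protein-coding TSS although the Carm1 midpoint was over 1.5 kb from it, and these had a median place of 880. Among them were sites at Klf3, Bcan, Igfbp2, Pou3f3, Klf6, Dusp6 and Notch1. Without any of these features (a noncoding 5′ end, a Med1 site over a TSS or one reaching a ROSE region) there were 354 sites (74.2%), with a median place of 10118.

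**Figure D2:**
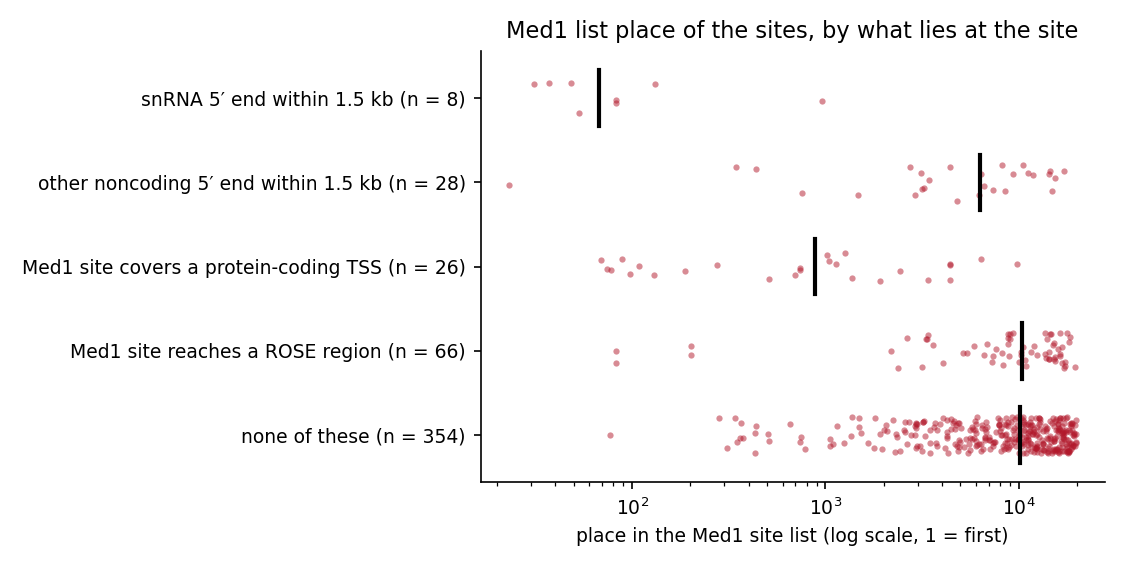
Place of each distal three-factor site in the Med1 list (horizontal axis, log scale, 1 is first), 1 point a site, grouped by what lies at the site (vertical axis; a site can be in more than 1 group), with bars at the medians. The 8 sites at snRNA genes have a median place of 67.5 and the 354 sites with none of these features one of 10118.

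By annotation, 251 sites (52.6%, 48.1 to 57.1) were intergenic and 197 (41.3%, 37.0 to 45.8) lay in introns of protein-coding genes. Another 12 were in introns of noncoding genes, 6 in exons of those and 11 in exons of protein-coding genes. Sites inside ROSE regions were intergenic in 48.9% and intronic in 44.4%. The share inside a protein-coding gene was lower by 4.29 percentage points outside ROSE regions (95% Newcombe interval -9.34 to 0.839), an interval that includes 0. The rule had taken sites near a TSS from the distal group only, and against the 1461 sites inside ROSE regions that were also over 1.5 kb from a TSS, a comparison added after seeing the data, the difference was -2.25 points (-7.33 to 2.90). The nearest TSS was upstream of the site in 266 cases and downstream in 211.

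DNA sequence was not used by the rule, so motif shares were compared with those of 2 other kinds of Carm1 site: the 1524 three-factor sites inside ROSE regions and 2334 distal sites outside ROSE regions with neither Jmjd1c nor Med1 (Carm1-only sites). Of 18 motifs, 1 differed from sites inside ROSE regions (5.56%) and 6 from Carm1-only sites (33.3%). Carm1-only sites are the larger group, against which most intervals were slightly narrower, though not that of the CTCF core. A difference was called where its Newcombe interval left out 0 at the level adjusted for 36 comparisons (99.86%), and the intervals printed are at 95%. All intervals cover the counting of sites within 1 sample per antibody and no variation between cultures.

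E-boxes, recognised by basic helix-loop-helix proteins such as Tcf4, Tcf12 and Olig2, were the commonest motif. CAGNTG was present in 299 of 477 windows (62.7%), in 58.9% inside ROSE regions and in 42.2% of Carm1-only windows. The difference from Carm1-only sites was 20.5 points (15.7 to 25.2) and was called. That from sites inside ROSE regions was 3.76 points (-1.30 to 8.66) and was not. In the flanks 2 kb to either side of the same sites the share was 43.9%, over all 8759 Carm1 windows 47.6% and in tiles of the same length along chromosome 19 37.8%.

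The palindromic E-box CAGCTG, a subset of CAGNTG, was the form that differed most. It was present in 171 windows (35.8%, 31.7 to 40.2), against 31.3% inside ROSE regions, 12.1% at Carm1-only sites, 10.5% in flanks, 21.6% over all Carm1 windows and 7.80% of tiles. The difference from Carm1-only sites was 23.8 points (19.4 to 28.3) and was called, and that from sites inside ROSE regions, 4.55 points (-0.252 to 9.51), was not. Another E-box, CAGATG, was found in 24.9% of the sites and 18.1% of Carm1-only windows, while the form CAGGTG was found in 10.7% and 10.6%. Within 50 bp of the Carm1 midpoint CAGCTG occurred at 2.29 matches per kb, 3.54 times its density at 300 to 500 bp, and the same ratio was 3.08 inside ROSE regions and 1.71 at Carm1-only sites. CAGCTG was present at least 2 times in 33 of the windows (6.92%), in 6.10% inside ROSE regions and in 1.89% of Carm1-only windows. At distal Carm1 sites outside ROSE regions this share was 8.12% with Jmjd1c but not Med1 and 2.96% with Med1 but not Jmjd1c.

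NFI half-sites also differed from Carm1-only sites and rose in density toward the midpoint, as CAGCTG did. TTGGC, the half-site of the Nfia, Nfib, Nfic and Nfix proteins, was present in 287 windows (60.2%, 55.7 to 64.5), in 55.0% inside ROSE regions, in 34.9% of Carm1-only windows, in 28.4% of flanks, in 45.9% of all Carm1 windows and in 28.1% of tiles. The difference from Carm1-only sites was 25.2 points (20.4 to 29.9), the largest of the 36, and was called. That from sites inside ROSE regions was 5.18 points (0.0787 to 10.2) and was not called at the adjusted level. The density rose from 1.88 matches per kb at 300 to 500 bp to 5.07 within 50 bp of the midpoint. The full palindrome was in 1 window only, that of Slc6a2 shown above.

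The SOX motif, which Sox2 and its relatives bind, lay between the other kinds of site. It was present in 180 windows (37.7%, 33.5 to 42.2), against 45.1% inside ROSE regions and 31.3% at Carm1-only sites. It was also in 31.4% of all Carm1 windows, 27.9% of tiles and 19.5% of flanks. Neither difference was called at the adjusted level, at -7.34 points (-12.3 to -2.26) from sites inside ROSE regions and 6.42 points (1.77 to 11.2) from Carm1-only sites. Its density within 50 bp of the midpoint was 1.77 times that at 300 to 500 bp, and 1.89 times inside ROSE regions.

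The CTCF core was the only one of the 18 motifs called against sites inside ROSE regions. CTCF is an architectural DNA-binding protein of insulators and loop anchors. The core was present in 23 of 477 windows (4.82%, 3.23 to 7.13) and 13 of 1524 inside ROSE regions (0.853%, 0.499 to 1.45), a difference of 3.97 points (2.27 to 6.31). It was in 2.31% of Carm1-only windows, 2.01% of all Carm1 windows, 1.26% of flanks and 1.23% of tiles, and the difference from Carm1-only sites, 2.51 points (0.776 to 4.88), was not called. At distal sites outside ROSE regions with Carm1 and Med1 but not Jmjd1c the share was 2.96% (1.74 to 5.0), an interval that overlaps that of the distal three-factor sites, and with Carm1 and Jmjd1c but not Med1 it was 1.27% (0.543 to 2.94). The matches lay centrally, at 0.273 per kb (13 matches) within 50 bp of the midpoint and 0.0681 per kb (13) at 300 to 500 bp. Inside ROSE regions the densities were 0.0262 (4 matches) and 0.0886 (54). Carm1-only sites had a central rise as well, with 0.111 (26 matches) and 0.0471 (44). The distal three-factor sites with a core were spread over the Med1 list (median place 6867, 95% interval 3144 to 14701). They included those at Igfbp2, Scd2, Gpd1, Lingo1, Adam19, Ntm and Rxra. CTCF binding itself was not measured in these files.

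Less common motifs also separated the sites from Carm1-only sites. The RFX half-site GTTGCCA was present in 33 windows (6.92%), in 6.10% inside ROSE regions, in 2.19% of Carm1-only windows and in 3.98% of all Carm1 windows. RFX factors are best known for cilia genes. The SP/KLF GC box GGGCGG was present in 53 windows (11.1%), against 7.41%, 3.6% and 16.0%, and the ETS motif CCGGAAG in 14 (2.94%), against 2.23%, 0.600% and 4.34%. The differences from Carm1-only sites were 4.73 points (2.67 to 7.42) for RFX, 7.51 points (4.86 to 10.7) for the GC box and 2.34 points (1.09 to 4.28) for ETS, all called. In tiles these motifs were in 1.95%, 2.37% and 0.680%, and at three-factor promoter sites the GC box and ETS motif were in 37.8% and 15.1%.

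**Figure D3:**
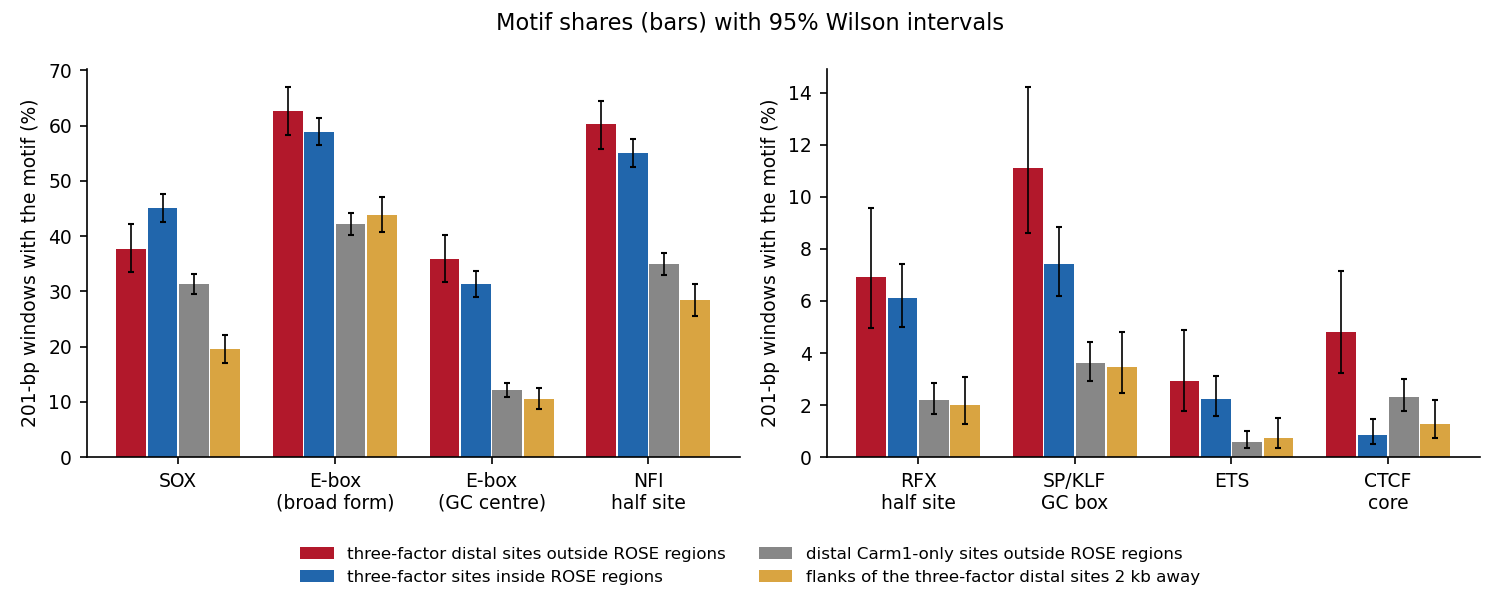
Share of windows (100 bp to either side of the Carm1 midpoint) holding each motif (vertical axes, percent) at distal three-factor sites, at three-factor sites inside ROSE regions, at distal Carm1-only sites and in flanks 2 kb from the distal three-factor sites, with 95% Wilson intervals. The intervals of the first 2 groups overlap for every motif shown except SOX (37.7% and 45.1%) and the CTCF core (4.82% and 0.853%).

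Base composition and repeated sequence both differed in the Carm1-only comparison. The median share of G and C was 52.2% in the distal three-factor windows, 51.2% inside ROSE regions and 43.8% at Carm1-only sites. Windows in which most short words of sequence are repeated in the genome made up 2.10% of the distal three-factor windows. They made up 1.84% of windows inside ROSE regions and 23.0% of Carm1-only windows. In windows with 45 to 60% G and C alone, a comparison added after seeing the data, CAGNTG still differed from Carm1-only sites by 13.1 points (7.07 to 18.8), CAGCTG by 17.0 points (11.4 to 22.6), NFI half-sites by 22.9 points (16.9 to 28.7) and RFX by 6.38 points (3.66 to 9.84). The SOX difference became 12.51 points (6.75 to 18.4) and was called there, and those of the GC box (2.59 points, -0.165 to 6.01) and ETS (1.15 points, -0.269 to 3.35) were not. The CTCF core was again called against sites inside ROSE regions, at 3.32 points (1.5 to 6.0). Mostly repeated windows were also left out, a comparison added after seeing the data. The differences from Carm1-only sites were then 20.1 points for CAGNTG, 22.4 for CAGCTG and 23.3 for NFI half-sites. They were 4.28 for RFX, 6.85 for the GC box and 2.06 for ETS, and all of these were called. SOX (6.71 points) was not, and the CTCF core was called against sites inside ROSE regions (4.06 points).

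The 3 commonest motif families were present together in similar shares of the windows outside and inside ROSE regions. SOX, CAGNTG and the NFI half-site were all present in 65 windows (13.6%, 10.8 to 17.0), in 14.0% inside ROSE regions, in 4.80% of Carm1-only windows and in 2.52% of flanks. None of them was present in 49 windows (10.3%), 9.84%, 27.7% and 30.6%. The company of a single other factor gave values in between: all 3 families were in 9.14% of distal Carm1 sites with Jmjd1c but not Med1 and in 9.11% of those with Med1 but not Jmjd1c. CAGCTG was in 27.4% and 27.3% of these.

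**Figure D4:**
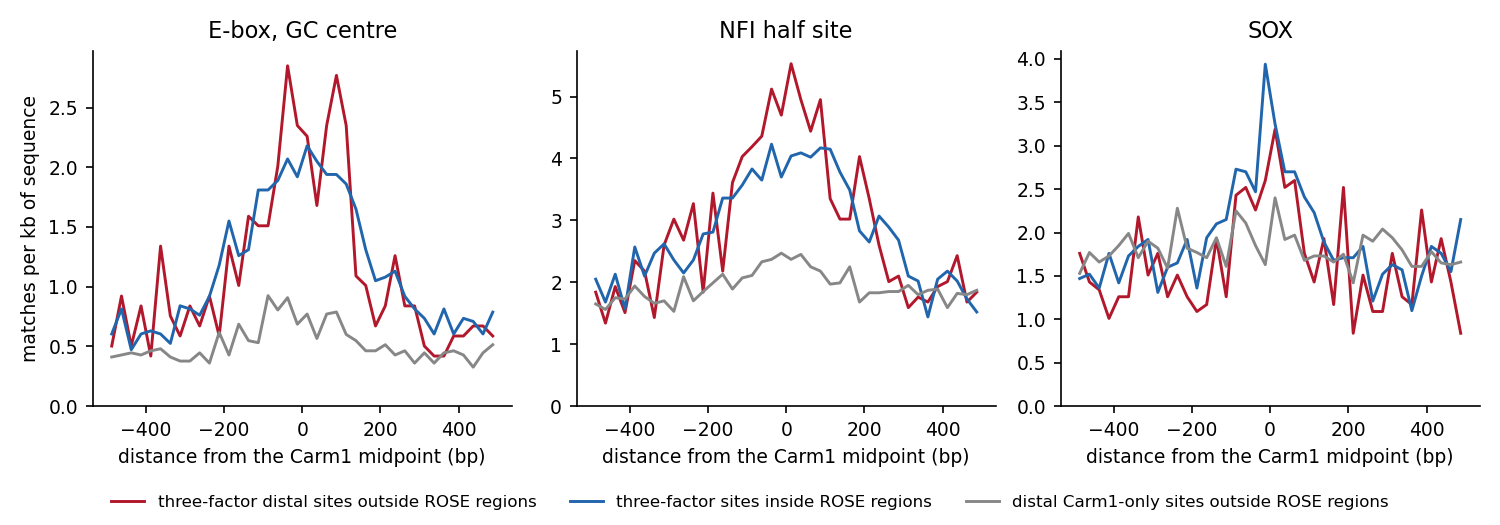
Matches per kb of sequence (vertical axes) of the GC-centred E-box, the NFI half-site and the SOX motif by distance from the Carm1 midpoint in bins of 25 bp (horizontal axes) at distal three-factor sites, three-factor sites inside ROSE regions and distal Carm1-only sites. The E-box and NFI curves of both three-factor groups are higher within 50 bp of the midpoint (2.29 and 5.07 per kb at the distal sites) than those of Carm1-only sites (0.733 and 2.41 per kb), which also rise toward the midpoint, by smaller ratios.

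Few differences in these motifs were found among the sites themselves. Of 32 comparisons (8 motifs between near and far from a TSS, near and far from a ROSE region, first and last of 4 equal parts by Med1 place, and intron and intergenic) 1 was called at the level adjusted for 32. The GC box was in 16.7% of the 120 sites earliest in the Med1 list and 3.36% of the last 119, a difference of 13.3 points (5.81 to 21.3). NFI half-sites ran the other way, with 52.5% in the earliest and 69.7% in the last (-17.2 points, -28.9 to -4.89, not called). SOX was in 44.7% of intronic and 33.5% of intergenic sites (11.2 points, 2.12 to 20.1, not called). By TSS distance, the GC box was in 18.9% of sites up to 5 kb away and 6.71% of those over 50 kb away. That difference was 12.2 points (3.42 to 23.0, not called), and the median Med1 places of these near and far sites were 4030 and 10528. CAGCTG ranged only from 32.8% to 39.5% over the 4 parts.

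The sites were assigned to the nearest protein-coding TSS, which gives a neighbour and not a target. They lay nearest to 437 genes, or 1.97% of 22238 protein-coding genes. Of 221 genes in 17 lists on neural stem cells, their signals and other cell types, 30 (13.6%) were among them. The lists were drawn up with earlier results of these data known, and the share of list genes was also above that of all genes for sites inside ROSE regions (23.5% and 5.18%) and Carm1-only sites (25.8% and 8.66%). The promoters of the neighbours were often occupied: 62.9% of the 437 had a Med1 site at a TSS, against 44.3% of all protein-coding genes. This share was 65.0% for the neighbours of three-factor sites inside ROSE regions and 47.5% for those of Carm1-only sites. Of the 437, 62.0% were also nearest to a ROSE region and 9.61% to a super enhancer. These shares were 21.0% and 1.79% over all protein-coding genes and 46.7% and 3.58% for the neighbours of Carm1-only sites. The rule used Med1 sites and ROSE regions, so all these shares are descriptions. The Med1 site itself covered a protein-coding TSS at 26 of the sites and reached a ROSE region at 66.

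The EGF and FGF pathway, on which these cells depend in culture, had 4 of its 20 listed genes among the neighbours. The site at Dusp6, a phosphatase that limits ERK signalling, lay 1.58 kb upstream of its TSS (place 275). Etv5 had a pair of sites, 1 in its own intron 7.47 kb downstream of the TSS (chr16:22428963-22429269, place 349) and the distal one shown above (place 735). The site of the receptor gene Fgfr2 lay in its intron, 106 bp from a ROSE region. Those nearest to Myc, a proliferation factor, lay 150 and 798 kb downstream of its TSS. In the BMP and TGF-beta list 3 of 16 genes were neighbours: the receptor gene Acvr2a and the transducers Smad3 and Smad5.

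Among regulators of neural stem cells, 3 of 16 were neighbours. The site at Notch1, the receptor that holds these cells undifferentiated, lay 2.97 kb downstream of its TSS (chr2:26356149-26356602, place 509), with SOX and NFI motifs. The site nearest to Sox9 lay 192 kb downstream of its TSS and that nearest to Gli3, a Hedgehog pathway factor, 410 kb upstream. Maml3, a Notch coactivator gene, had a pair of sites in its introns, 2.31 and 16.3 kb downstream of the TSS. Of genes for the motif-binding families, Sox3 and Sox9 (2 of 12 SOX genes), Tcf12 and Id4 (2 of 7 E protein and Id genes) and none of 4 NFI genes were neighbours.

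Axon guidance genes, the longest list, had most neighbours, 8 of 24 (33.3%). The share was 13.6% over all listed genes and 1.97% over all protein-coding genes, and no single list was tested. The 8 were the ligand genes Slit1, Slit3, Ntn1 and Sema5a and the receptor genes Epha4, Epha5, Ephb2 and Plxna2. Their sites lay far into the gene or away from it, from 9.60 kb (Plxna2) to 572 kb (Epha4) from the TSS, and 7 of the 8 genes had a site in an intron of the gene itself. In the other lists, Klf3 and Klf6 (2 of 11 Kruppel-like factors), Pou3f2 and Pou3f3 (2 of 8 POU and SALL genes), Wnt7b and Dkk3 (2 of 18 Wnt genes), Olig1 (1 of 10 oligodendrocyte genes) and Syt1 (1 of 15 neuronal genes) were neighbours. None was found among 21 forebrain patterning, 8 astrocyte, 7 pluripotency and 16 other cell type genes. As a check of the cells, the NSC markers Sox2, Nes, Pax6, Hes1, Hes5, Fabp7, Slc1a3, Vim and Olig2 and 2 of 16 markers of other cell types (Tbx6 and Gata4) had a Med1 site at a promoter.

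A few genes collected several sites. Wscd1, which encodes a protein with a WSC domain, had 4, and 3 of them lay in a stretch of 12.3 kb around its TSS and each held CAGCTG and SOX motifs. Edn2 (endothelin 2), Pabpc6, Rpl36-ps3, Camta1, Bahcc1, Hrh4 and Eif3h had 3 each, and 31 genes had at least 2. Joined over the distance that ROSE uses, 34 of the 477 sites (7.13%) fell into 16 groups, so most had no other of the 477 that near. Sites inside ROSE regions took no part in this joining. A ROSE region lay within the same distance of 143 of the 477 sites (30.0%). All 3 Bahcc1 sites held CAGCTG. A site at the 5′ end of the lincRNA Gm17351, 175 kb from the nearest protein-coding TSS, had Jmjd1c itself as its neighbour (place 439), a gene singled out here after its values were seen.

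The sites were not spread evenly over chromosomes. Chromosome 11 held 63 of them (13.2%), or 5.17 per 10 Mb, and chromosome 15 held 35 (7.34%), or 3.38 per 10 Mb, while chromosome X had 0.480 per 10 Mb. IgG signal moved with this. In the authors' ROSE table, divided by region length, typical enhancers had a median IgG signal of 203 per kb on chromosome 11, 172 on chromosome 15 and 115 to 134 on the other autosomes. Chromosomes 11 and 15 together held 20.5% of the distal three-factor sites, 16.7% of those inside ROSE regions and 13.1% of Carm1-only sites. The part of this signal in the counts was not tested. The other chromosomes held 379 sites. On them the CTCF core still differed from sites inside ROSE regions by 4.15 points (2.24 to 6.86) and CAGCTG from Carm1-only sites by 24.7 points (19.8 to 29.9).

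**Figure D5:**
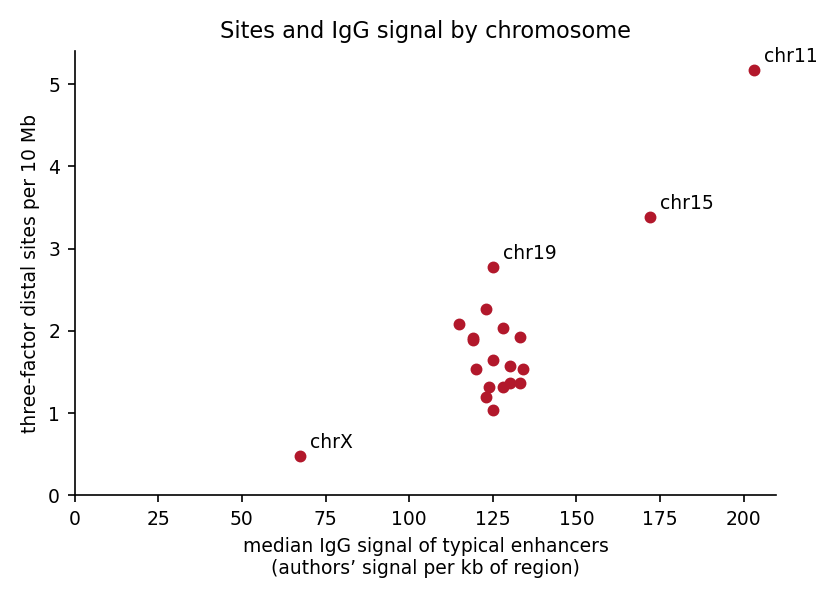
Distal three-factor sites per 10 Mb (vertical axis) against the median IgG signal of typical enhancers in the authors' signal per kb of region (horizontal axis), 1 point a chromosome. Chromosome 11 (203 and 5.17 per 10 Mb) and chromosome 15 (172 and 3.38 per 10 Mb) stand to the right of and above the other autosomes, which lie between 115 and 134.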

How the data were processed

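ChIP-seq with antibodies to Med1, Carm1 and Jmjd1c and with IgG was done in 1 sample each of NS-5 cells (4 samples). According to the methods and the labels, Bowtie 0.12.7 placed the reads on mm9, allowing 2 mismatches in a 36-base seed, duplicates were removed (Picard 1.81 is listed) and sites were called with MACS 1.4.2 against IgG. The deposited site lists hold positions only: 8759 Carm1, 8078 Jmjd1c and 19956 Med1 sites, with no height, summit or p-value. The names of the Carm1 and Jmjd1c lists carry 0.0005 and 5e-05, which may be their p-value limits but are not explained. If they are, Jmjd1c was called more strictly, and a Carm1-only site may hold weaker Jmjd1c signal. The deposited ROSE table gives the authors' Med1 and IgG signal of 8089 regions, of which only IgG signal, divided by region length in kb, was used. None of the sources used here gives library depth.

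Sites were overlapped in Python 3.11.15 (numpy 2.4.6, pandas 2.3.3, pysam 0.24.0, scipy 1.17.1). The annotation was GENCODE vM1 on mm9. A nearest gene is the protein-coding gene with the transcript 5′ end closest to the Carm1 midpoint, and Med1 at a promoter means a site within 1.5 kb of a 5′ end. Motifs were searched on both strands in windows of 100 bp to either side of the Carm1 midpoint. Beside those spelled out in the report they were the E-box form CAGGTG, the E-box form CATATG, the E-box form CACGTG, the homeobox motif TAATTA, the CRE motif TGACGTCA, the RBPJ motif GTGGGAA and the TEAD motif GGAATG. The motif CAGNTG includes the form CAGCTG as well as the form CAGGTG, and the NFI palindrome includes the NFI half-site. Tiles are 289261 consecutive windows of chromosome 19. Shares have 95% Wilson intervals, differences Newcombe intervals and medians order-statistic intervals, computed over sites. The scripts were tested on simulated data.

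The sites, lists and motifs were chosen with earlier results of these data known. Named genes are the neighbours of the sites earliest in the Med1 list, those with most sites, members of the 17 lists and the sites nearest to either limit. Alternatives changed 1 choice at a time, and those added later are named as such. The authors' super enhancer calls were used only to describe distances. A few items that the rule for named genes or windows selects are not reported here.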

Additional observations from a re-analysis of the deposited data

How the results depend on the processing

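Across 17 results and 246 recomputations, no difference turned its direction, 231 kept their side of the threshold or their range, and the others were as follows. The number of sites was 255 with the first 10000 Med1 sites and lay between that and 499 otherwise. The median TSS distance was 20993 bp with those Med1 sites and 39389 bp from the 5′ end of the gene. The share within the joining distance of a ROSE region was 24.1% when no base of the Carm1 site could lie in one and 20.4% with regions widened by 1 kb. With a promoter width of 2.5 kb, the SOX difference from sites inside ROSE regions became -8.98 points and that of the share inside genes -5.52 points, both past their thresholds. That width removes sites from the distal group alone: with it also applied to sites inside ROSE regions, a setting added after seeing the data, they were -9.38 points, past its threshold, and -3.10 points, short of it. The CTCF difference from Carm1-only sites passed at 2.71 points with 5′ ends of all genes, at 3.16 points with windows of 150 bp to either side and at 2.89 points without chromosomes 11 and 15. Among alternatives added after seeing the data, windows of 45 to 60% G and C gave a SOX difference from Carm1-only sites of 12.51 points, now past the threshold, and ended the calls of ETS and the GC box. A window of 50 bp to either side also ended that of ETS, at 1.08 points. The CTCF core was called against sites inside ROSE regions under all 17 alternatives, at 1.83 to 4.19 points. The cause of these shifts was not tested. Leaving out windows that are mostly soft-masked repeat was not run, since the genome used has no soft-masking. Leaving out windows in which most 32-base words are repeated in the genome took its place. No paired analysis was possible because each antibody has 1 sample. With 1 sample each and no heights in the lists, neither the spread between cultures nor the strength of a site can be given.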
